A study of Mus musculus with 8 samples.

Results

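Transcripts of 10 genes that carry the insulin signal inside the liver cell were followed in newborn mice with and without the glycerol kinase gene. The genes are Insr, Irs1, Irs2, Pik3r1, Pik3ca, Pdpk1, Akt1, Akt2, Ptpn1 and Grb14, and every probe set (a group of short probes for 1 transcript region) that the platform's annotation pairs with 1 of these symbols was taken. This gave 28 of the 45101 probe sets on the array. Testing was limited to probe sets that reached a signal of 200 on 4 or more of the 8 arrays, which kept 22 of the 28, with 1 or more for each gene. Livers of 4 wild-type and 4 knockout pups were each hybridised to 1 Affymetrix mouse GeneChip. Both groups are given as male, of the inbred C57BL/6J strain and aged 3 days, the wild-type pups as age-matched littermates. The knockout carries a targeted disruption of the glycerol kinase gene. No probe set that the annotation pairs with 1 gene alone was named for it, and probe sets paired with several genes were not searched. Its level therefore did not check the labels.

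Insulin binds the receptor encoded by Insr, a tyrosine kinase that phosphorylates docking proteins, of which Irs1 and Irs2 are the main ones in liver. These recruit phosphoinositide 3-kinase, made of a regulatory and a catalytic subunit (Pik3r1 and Pik3ca encode 1 of each), whose lipid product brings the kinase Pdpk1 and its substrates Akt1 and Akt2 to the membrane. The phosphatase Ptpn1 and the adaptor Grb14 restrain the receptor. In liver, active Akt holds FOXO transcription factors out of the nucleus. Transcripts that FOXO drives, Irs2 among them, are known to fall after feeding and to rise in fasting. The series' design gives low blood glucose among the symptoms of the knockout pups at this age. Much of the pathway works through phosphorylation, which these arrays do not read.

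The promoters of the 2 docking protein genes are shown because these genes had the most unequal values of the 4 pairs of members compared below. RefSeq windows (250 bases before to 50 bases after the start, GRCm38.p6) were found for 9 of the 10 genes, 15 windows in all. Capitals mark the E-box CACGTG and the core CAAAACA of the insulin response element, which reads TGTTTTG on the other strand. Irs1 lies at chr1:82291390-82291689 and Irs2 at chr8:11008880-11009179, both on the minus strand, and each is printed 5′ to 3′.
Irs1: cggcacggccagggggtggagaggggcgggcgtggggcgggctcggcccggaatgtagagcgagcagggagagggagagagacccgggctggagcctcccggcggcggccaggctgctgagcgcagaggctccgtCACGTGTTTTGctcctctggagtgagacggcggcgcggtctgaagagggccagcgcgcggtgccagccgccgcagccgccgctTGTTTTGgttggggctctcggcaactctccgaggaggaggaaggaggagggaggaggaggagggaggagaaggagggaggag
Irs2: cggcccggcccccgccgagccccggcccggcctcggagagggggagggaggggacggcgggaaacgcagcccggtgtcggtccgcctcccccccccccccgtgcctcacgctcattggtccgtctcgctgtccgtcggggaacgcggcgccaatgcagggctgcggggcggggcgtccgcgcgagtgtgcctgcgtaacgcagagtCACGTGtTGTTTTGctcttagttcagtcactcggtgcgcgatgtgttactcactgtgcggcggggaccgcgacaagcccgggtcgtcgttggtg

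Both windows were rich in G and C (71.3% for Irs1 and 72% for Irs2). In the Irs2 window the E-box begins 44 bases before the start, and the insulin response core follows it 37 bases before the start. The Irs1 window holds an E-box 115 bases before the start that overlaps a core at 111, and a further core at 32. An E-box was found in 7.15% of all 32851 windows on either strand, the core in 6.28% and both in 0.408%. Irs1 and Irs2 were the member genes with both. These motifs were picked from 10 that were searched on both strands, after the matches had been seen. The FOXO consensus GTAAACA was in 3.65% of all windows and in 1 member window, that of Akt1. The shorter TGTTT, which lies within the core, was in 50.5%, and in 8 of the 15 member windows. The CCAAT box was in 37.4% and 4 member windows. The GC box GGGCGG was in 35.7% and 9 member windows. The cyclic AMP response element TGACGTCA was in 1.79% and 0 member windows. Its partial form TGACG was in 20.8% and 5. The ETS motif CCGGAAG was in 8.86% and 2. The string ACACNNNGT was in 9.07% and 0. A match describes the letters and does not show that a factor binds there.

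No member passed the test between knockout and wild type. Of the 22 probe sets, 0 had an adjusted p under 0.05 in limma (Benjamini-Hochberg over all 20395 probe sets tested), where 0.299% of all probe sets tested were called. At an unadjusted p under 0.05 there were 2, for Irs2 and Pik3r1, or 9.09% against 14.4% of all probe sets tested. The median log2 fold change of the 22 was -0.03, as over all probe sets tested (-0.03), and 10 of the 22 (45.5%) lay above 0, against 45.8% of all probe sets tested. By the brightest tested probe set of each gene, 7 of the 10 genes lay above 0, against 46.5% of all genes tested. Their median was 0.07, against -0.02 over all genes tested. It was 0.14 within replicates 1 and 2 and -0.07 within replicates 3 and 4. With the pair of replicates (1 and 2 against 3 and 4) as a block, limma called 0 of 22 members, where 0.902% of all probe sets tested were called, and 3 of 22 (13.6%) had an unadjusted p under 0.05, against 18.3%. Without the array wild type 4, described below, 0 of 22 were called, where 0.0294% of all probe sets tested were. Fold changes here are knockout minus wild type on the scale of log2(signal + 16), which understates the change of dim probe sets. For 19 of the 22 the 95% interval lay within a 2-fold change in either direction (85% of all probe sets tested). The number of arrays limits this precision: the median standard error of the members was 0.18. That the pups were separate animals is stated, but they share litters in ways the labels do not give.

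**Figure D1:**
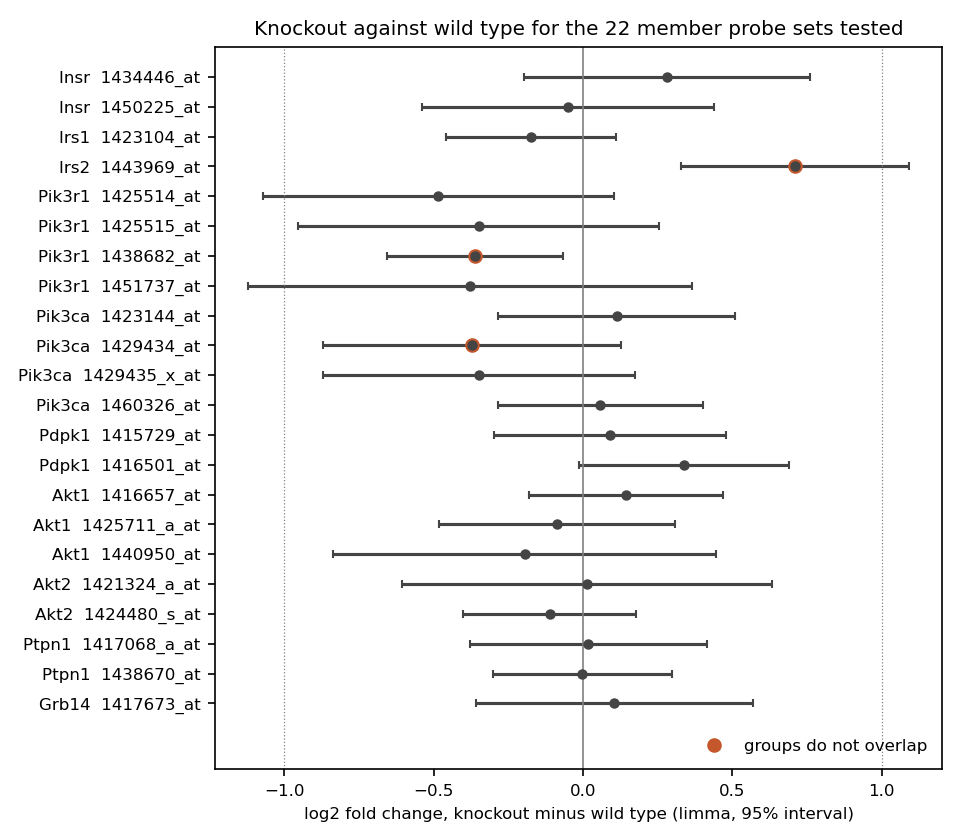
Log2 fold change of knockout minus wild type with limma's 95% interval for each of the 22 member probe sets tested (4 arrays per group). Orange rings mark the 3 probe sets whose groups do not overlap, and dotted lines mark a 2-fold change either way. The interval of Irs2 lies above 0 and that of 1 Pik3r1 probe set below it, and neither passed after adjustment.

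Some arrays stood apart before any comparison of genotypes. The array labelled wild type 4 had a signal of 10506 for Xist, the RNA of the inactive X chromosome, against 196 to 396 on the other 7 arrays, and 1.3 for the Y-linked Eif2s3y against 685 to 1164, so it goes against its label of male. The ratio of the 3′ to the 5′ probe set of the transferrin receptor ran from 6.50 to 6.72 in replicates 1 and 2 of both groups and from 4.21 to 4.83 in replicates 3 and 4. The same ratio of pyruvate carboxylase, a sign of RNA quality, was 7.03 on knockout 1 and 4.93 on knockout 2, against 2.06 to 3.46 on the others. All 10 hepatocyte markers tested had a signal of 3277 or more on every array. Their summed signal ran from 176892 to 220936 in wild type and from 194010 to 253696 in the knockout, and that of 7 erythroid markers, for the blood-forming cells of newborn liver, from 53309 to 65613 and from 46797 to 69636. The median log2 fold change was 0.09 for hepatocyte markers, with 9 of 10 above 0, and -0.10 for erythroid markers, with 1 of 7. Of all genes tested, 46.5% lay above 0. Both medians changed sign between the pairs of replicates. Within replicates 1 and 2 they were 0.31 for hepatocyte and -0.31 for erythroid markers, and within replicates 3 and 4 they were -0.12 and 0.18. Over the 4 B lymphoid markers tested the median was -0.42 and over the 4 megakaryocyte markers -0.27, with 0 above 0 in either list. Stellate and fibroblast markers had a median of -0.27 (0.02 within replicates 1 and 2, -0.58 within replicates 3 and 4) and granulocyte markers of -0.22. Kupffer cell and macrophage markers stood at 0.09 (0.39 and -0.11), endothelial markers at -0.04, 2 cholangiocyte markers at -0.06 and the 1 adipose and muscle marker tested at -0.46. In limma, 0 markers were called in these lists, and their part in the members' values was not tested. In whole liver, fewer cells of a type and less RNA per cell cannot be told apart. Members' values are therefore also given within replicates 1 and 2, within replicates 3 and 4, and without wild type 4.

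The receptor was read by 3 probe sets, of which 2 were tested. The brighter probe set of Insr, 1434446_at, had signals of 2228, 1712, 1398 and 1868 in wild type 1 to 4 and of 3155, 2288, 1861 and 1628 in knockout 1 to 4. Knockout 1 was the highest of all, and the other 3 knockout values lay within or just above the wild-type range. The log2 fold change was 0.28 ± 0.22 (SE, n = 4 per group; 95% interval -0.20 to 0.76; limma adjusted p = 0.597). Without knockout 1 it was 0.10. It was 0.46 within replicates 1 and 2, 0.11 within replicates 3 and 4 and 0.31 without wild type 4. The second probe set, 1450225_at, had signals of 176 to 357 in wild type and 214 to 266 in the knockout, with a log2 fold change of -0.05 ± 0.22. This value had opposite signs in the pairs of replicates, -0.32 and 0.22, and the test of their difference gave a limma adjusted p of 0.611. Without wild type 4, its lowest array, the value was -0.20.

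Among the docking proteins, Irs2 had the smallest p of all members. Its single probe set, 1443969_at, had signals of 164, 169, 193 and 212.5 in wild type 1 to 4 and of 331, 302, 292 and 319 in knockout 1 to 4. The lowest knockout liver lay well above the highest wild-type liver, and the groups did not overlap. The means were 185 ± 22.5 in wild type and 311 ± 17.6 in the knockout (SD, n = 4 each), 1.69 times as high. The log2 fold change was 0.71 ± 0.17 (SE; 95% interval 0.33 to 1.09), with a limma adjusted p of 0.107, so it did not pass. It was 0.87 within replicates 1 and 2, 0.56 within replicates 3 and 4 and 0.78 without wild type 4 (limma adjusted p = 0.158). Over all other settings tried the limma adjusted p ran from 0.0667 to 0.287. The probe set reached the minimum signal on 5 arrays, the 4 knockout arrays and wild type 4, so it entered the test through the group in which it was higher. With no filter on low signal the limma adjusted p was 0.206.

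The other docking protein gene, Irs1, was also read by 1 probe set, 1423104_at. Signals were 1539, 1489, 1474 and 1582 in wild type 1 to 4 and 1452, 1479, 1155 and 1318.5 in knockout 1 to 4. The 4 wild-type values lay close together, at 1521 ± 49.1, and the knockout values at 1351 ± 148 (SD, n = 4 each). Only knockout 2 lay within the wild-type range, and knockout 3 was the lowest. The log2 fold change of Irs1 was -0.17 ± 0.13 (95% interval -0.46 to 0.11; limma adjusted p = 0.579), -0.05 within replicates 1 and 2, -0.30 within replicates 3 and 4 and -0.16 without wild type 4. Without knockout 3 it was -0.10.

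**Figure D2:**
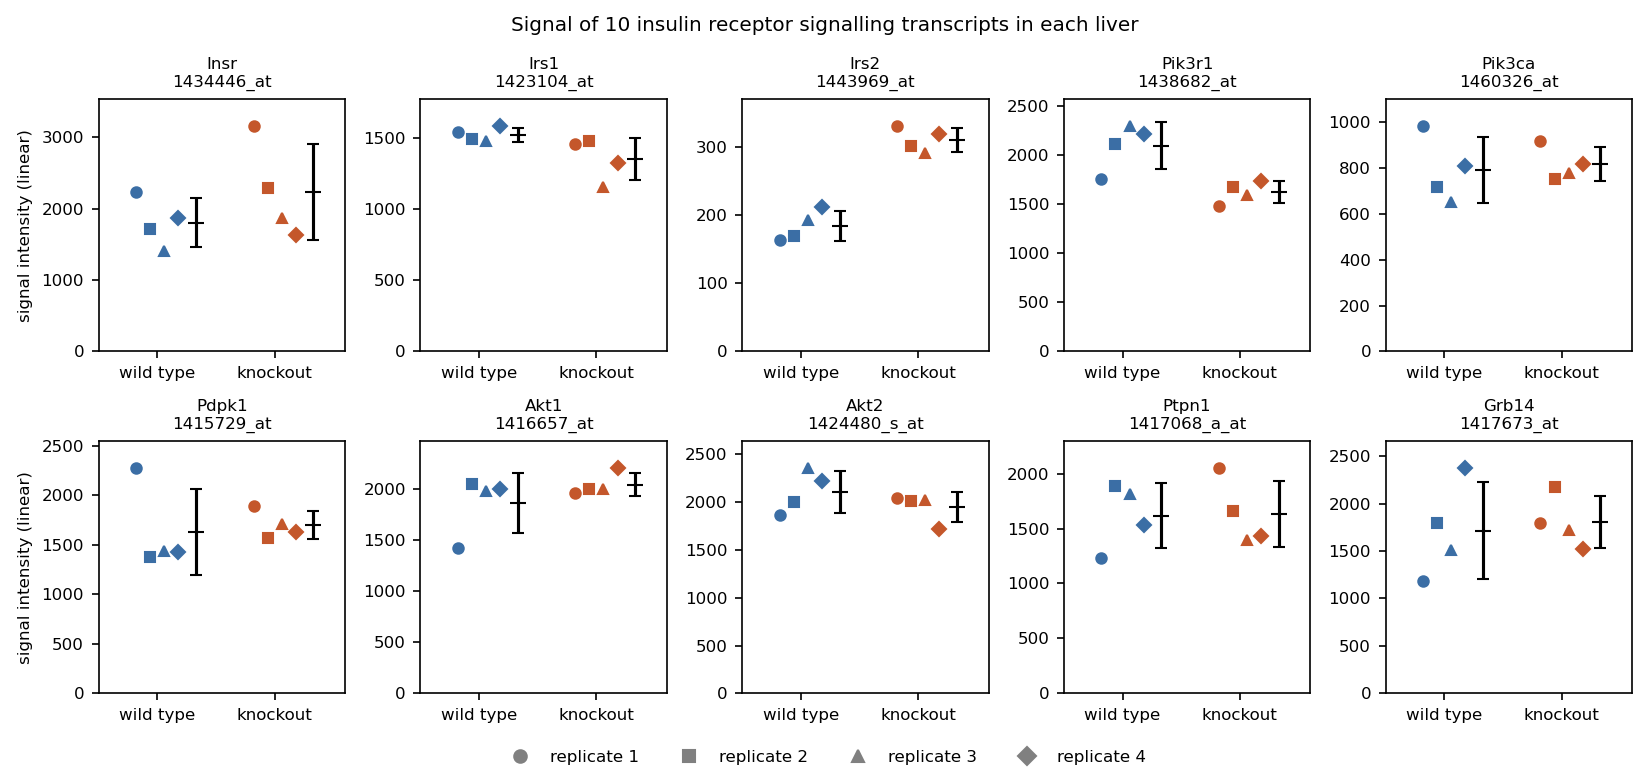
Signal intensity on a linear axis from 0 for the brightest tested probe set of each of the 10 genes, 1 point per liver, with the marker giving the replicate number and the bars mean ± SD (n = 4). Irs2 and Pik3r1 are the panels in which the groups do not overlap.

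Of the phosphoinositide 3-kinase subunits, Pik3r1, the regulatory subunit p85 alpha and its shorter forms, was read by 4 probe sets, and all 4 values lay below 0. The brightest, 1438682_at, had signals of 1758, 2114, 2298 and 2219 in wild type 1 to 4 and of 1485, 1680, 1594 and 1740 in knockout 1 to 4. All knockout values were below all wild-type values, although knockout 4 and wild type 1 were nearly equal. The means were 2098 ± 238 and 1625 ± 111 (SD, n = 4 each). The log2 fold change was -0.36 ± 0.13 (SE; 95% interval -0.65 to -0.07; limma adjusted p = 0.257). It was -0.28 within replicates 1 and 2, -0.44 within replicates 3 and 4 and -0.33 without wild type 4.

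The other 3 Pik3r1 probe sets were designed from a common accession and are not independent readings. Their log2 fold changes were -0.48 ± 0.27 (1425514_at), -0.35 ± 0.27 (1425515_at) and -0.38 ± 0.34 (1451737_at). Their groups overlapped. For 1425514_at, signals were 579, 857, 1156 and 1057 in wild type 1 to 4 and 419, 557, 736 and 897 in knockout 1 to 4. Wild type 1 and knockout 1 were the lowest of their groups in all 4 Pik3r1 probe sets. These arrays also had the highest 3′ to 5′ ratios of actin, 1.32 and 1.74 against 1.21 to 1.27 on the others, whose part in the result was not tested. Without knockout 1 these 3 values were -0.30, -0.14 and -0.15, and that of 1438682_at was -0.32. Without wild type 1 they were -0.68, -0.57 and -0.68, and that of 1438682_at was -0.44. All 4 probe sets were below 0 in each case, and also without wild type 4, where the 3 stood at -0.40, -0.29 and -0.21. Within replicates 1 and 2 the 3 stood at -0.53, -0.45 and -0.29, and within replicates 3 and 4 at -0.44, -0.24 and -0.46. With the pair of replicates as a block, 1425514_at had an unadjusted p of 0.0142 and an adjusted p of 0.165 in limma.

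Pik3ca, the catalytic subunit p110 alpha, was read by 6 probe sets, of which 4 were tested, and these did not share a direction. The brighter pair stood at 0.06 ± 0.16 (1460326_at) and 0.11 ± 0.18 (1423144_at). The dimmer pair, 1429434_at and 1429435_x_at, stood at -0.37 ± 0.23 and -0.35 ± 0.24, and limma's adjusted p for the 4 ran from 0.486 to 0.899. For 1429434_at, signals were 432, 231, 258 and 219 in wild type 1 to 4 and 208, 204, 207 and 216 in knockout 1 to 4. These groups did not overlap, by a margin of a few units, and the mean difference came largely from wild type 1: without it the value was -0.16. Within replicates 1 and 2, within replicates 3 and 4 and without wild type 4, in this order, 1460326_at stood at -0.013, 0.13 and 0.074, and 1423144_at at -0.10, 0.33 and 0.069. In the same order 1429434_at stood at -0.58, -0.16 and -0.47, and 1429435_x_at at -0.57, -0.13 and -0.40. In all, the groups did not overlap for 3 of the 22 member probe sets (13.6%), against 9.32% of all probe sets tested.

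Of the 3 kinases below the lipid signal, 0 probe sets were called, and 1 probe set of Pdpk1 stood furthest from 0. Pdpk1, which phosphorylates Akt in its activation loop, had signals of 494 to 657 in wild type and 578 to 846 in the knockout by probe set 1416501_at. The log2 fold change was 0.34 ± 0.16 (95% interval -0.01 to 0.69; limma adjusted p = 0.364), and 0.43 without wild type 4, the highest wild-type array. Its brighter probe set, 1415729_at, stood at 0.09 ± 0.18, with wild type 1 at 2274 above all other arrays (1375 to 1894). Without wild type 1 this value was 0.26. It was -0.037 within replicates 1 and 2, 0.22 within replicates 3 and 4 and 0.037 without wild type 4, and 1416501_at stood at 0.46 and 0.22 within these pairs of replicates. Akt1 had 3 tested probe sets at 0.15 ± 0.15, -0.09 ± 0.18 and -0.19 ± 0.29. By the brightest, 1416657_at, wild type 1 was at 1421 and the other 7 arrays between 1959 and 2203. Without wild type 1 its value was 0.022, against 0.18 without wild type 4. Within replicates 1 and 2 the 3 Akt1 probe sets stood at 0.21, -0.15 and -0.55, and within replicates 3 and 4 at 0.079, -0.019 and 0.16. Without wild type 4 the dimmer pair stood at -0.036 and -0.047. Akt2, the Akt form known for insulin's effect on glucose, had 2 tested probe sets, at -0.11 ± 0.13 (1424480_s_at, signals of 1864 to 2355 in wild type and 1712 to 2045 in the knockout) and 0.01 ± 0.28 (1421324_a_at). For the latter, wild type 1 was at 166 and the other 7 arrays were between 325 and 443, and without wild type 1 the value was -0.31. It was 0.31 within replicates 1 and 2, -0.28 within replicates 3 and 4 and 0.12 without wild type 4. The brighter Akt2 probe set stood at 0.072, -0.29 and -0.085 in these. The 95% interval of the brighter Akt2 probe set ran from -0.40 to 0.18 and that of the brighter Akt1 probe set from -0.18 to 0.47.

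Values for the inhibitors of the receptor lay near 0. Ptpn1, a tyrosine phosphatase that acts on the activated receptor, stood at 0.02 ± 0.18 (1417068_a_at) and 0.00 ± 0.14 (1438670_at). The latter had signals of 1103 to 1377 in wild type and 1123 to 1366 in the knockout, and its 95% interval of -0.30 to 0.30 was among the narrower ones here. Within replicates 1 and 2, within replicates 3 and 4 and without wild type 4, this probe set stood at 0.027, -0.031 and 0.037, and 1417068_a_at at 0.27, -0.23 and -0.00094. Grb14, an adaptor that binds the receptor's kinase domain and blocks it, had signals of 1180, 1799, 1508 and 2375 in wild type 1 to 4 and of 1792, 2177, 1723 and 1519 in knockout 1 to 4. The knockout range lay inside the wild-type range. The log2 fold change was 0.11 ± 0.21 (95% interval -0.36 to 0.57; limma adjusted p = 0.859). Without wild type 4, the highest array, it was 0.28. It was 0.43 within replicates 1 and 2 and -0.22 within replicates 3 and 4, and the difference between these had a limma adjusted p of 0.561.

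The 6 probe sets that were not tested, 2 for Pik3ca and 1 each for Insr, Akt1, Akt2 and Grb14, had signals of 8.3 to 221 and are not counted above.

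Replicates 1 and 2 were set against replicates 3 and 4 for every member. The values had the same sign in both for 12 of 22 probe sets (54.5%, against 58.3% of all probe sets tested). Irs2 and all 4 Pik3r1 probe sets were among these 12. A limma test of the difference called 0 of 22 members at an adjusted p under 0.05, where 0.00981% of all probe sets tested were called, and 0 at an unadjusted p under 0.05, where 9.92% were. The largest differences were 0.71 for the Akt1 probe set 1440950_at and -0.66 for Grb14, as replicates 3 and 4 minus replicates 1 and 2.

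**Figure D3:**
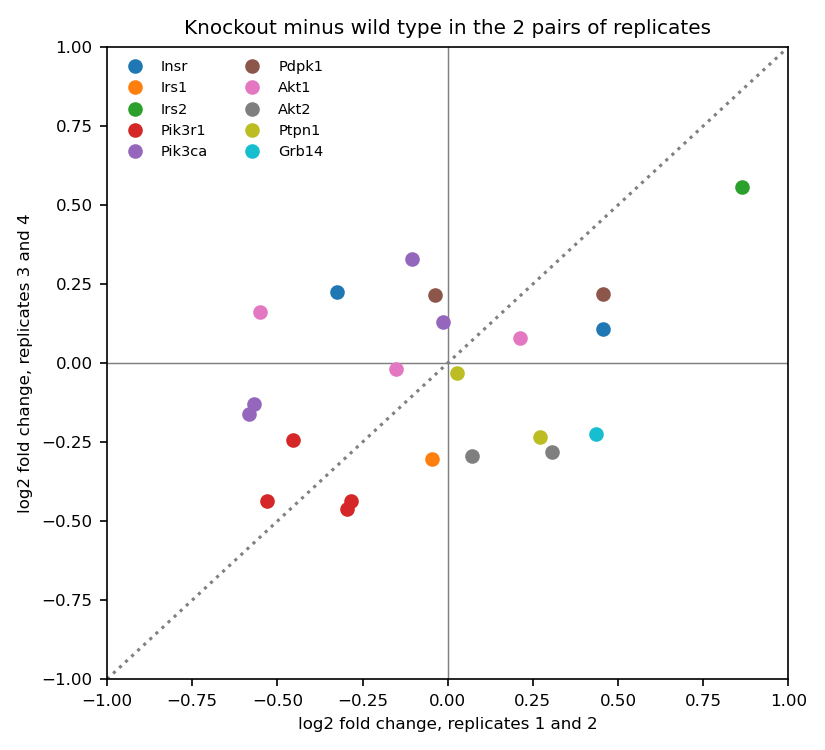
Log2 fold change of knockout minus wild type within replicates 1 and 2 (x axis) and within replicates 3 and 4 (y axis) for the 22 member probe sets, coloured by gene, with a dotted line of equal values. Irs2 lies apart at 0.87 and 0.56, and the 4 Pik3r1 probe sets lie below 0 on both axes.

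Pairs of members were compared within each array, which asks whether 2 transcripts changed unequally and says nothing of their relative levels. The difference of Irs2 minus Irs1, as log2(signal + 16), was -2.94 ± 0.15 in wild type and -2.06 ± 0.13 in the knockout (SD, n = 4 each). It moved by 0.89 towards Irs2, with all 4 knockout arrays (-2.23 to -1.93) above all wild-type arrays (-3.11 to -2.81). An exact permutation test over the 70 splits gave a two-sided p of 0.0286, the smallest this design allows, and 0.114 after Benjamini-Hochberg adjustment over the 4 pairs. A single pair at this smallest p cannot go below 0.114 after that adjustment, so the design did not allow it to pass alone. Irs2 is also the member that entered the tests through the knockout arrays. For Akt2 minus Akt1 the change was -0.26 (0.19 ± 0.18 to -0.07 ± 0.20; exact permutation p = 0.114, adjusted 0.152). It was -0.16 without knockout 4 and -0.33 without wild type 2, the only wild-type array inside the knockout range. The exact permutation p without wild type 2, 0.0286 (adjusted 0.0571), is the smallest that 35 splits allow. Leaving out the overlapping array fixed that p in advance, so it gives no support. Without any other 1 array the unadjusted p ran from 0.114 to 0.257. For Pik3r1 minus Pik3ca the change was -0.42 (1.40 ± 0.41 to 0.98 ± 0.20; exact permutation p = 0.114, adjusted 0.152). Wild type 1, at 0.83, was the only wild-type array inside the knockout range. Without it the change was -0.61, and the exact permutation p was fixed in the same way (0.0286, adjusted 0.0571). Without any other 1 array the unadjusted p ran from 0.143 to 0.257. For Grb14 minus Insr the change was -0.18 (-0.10 ± 0.55 to -0.27 ± 0.36; exact permutation p = 0.486, adjusted 0.486), and replicate 1 was the lowest in both groups.

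**Figure D4:**
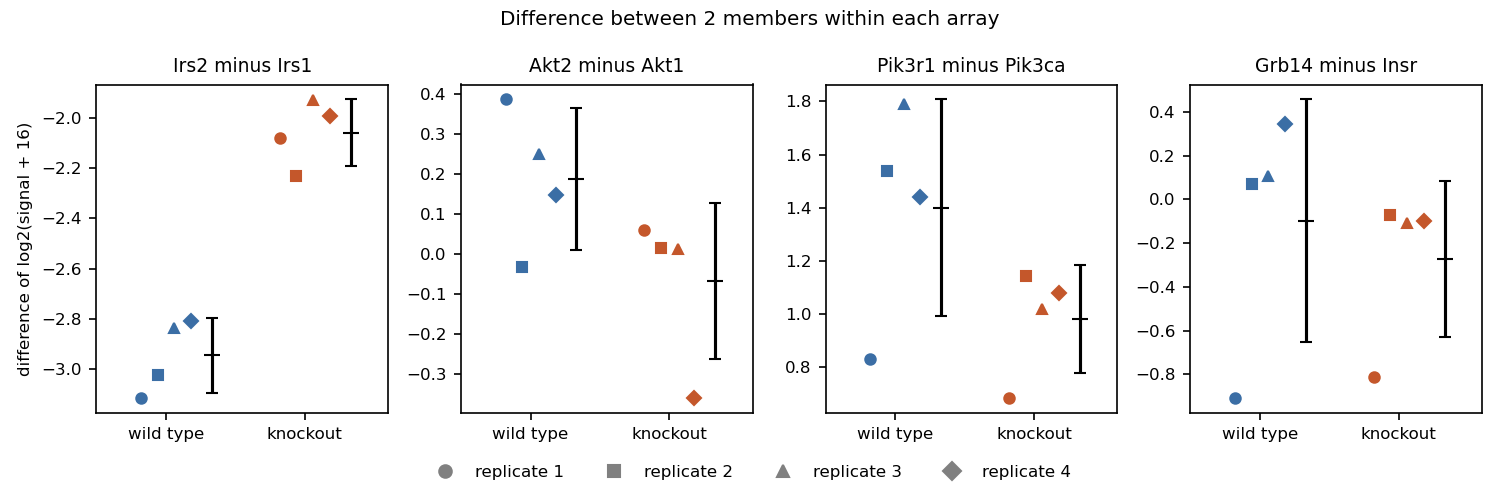
Difference between 2 members' log2(signal + 16) within each array, 1 panel per pair, with the marker giving the replicate number and bars mean ± SD (n = 4). The groups are separate for Irs2 minus Irs1 and overlap in the other 3 panels.

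Genes whose arrays varied most like the 2 members with the smallest p were found by the root mean square difference of log2(signal + 16), each centred on its mean over the 8 arrays. For Irs2 they were Ythdf3 (0.099), a reader of methylated adenosine in RNA, the RNA-binding protein gene Hnrnpab (0.111) and Tob2 (0.114), an antiproliferative factor. Their log2 fold changes were 0.62, 0.68 and 0.60, and Irs2 itself varied around its mean by 0.372. For Pik3r1 (1438682_at) they were Ttc7 (0.064), the clathrin adaptor subunit Ap2s1 (0.068) and Rgp1 (0.070), at -0.36, -0.33 and -0.25. All 6 were picked for likeness on these same arrays, so fold changes near those of Irs2 and Pik3r1 were fixed in advance. None of these 6 passed the test between genotypes (limma adjusted p from 0.0706 to 0.440).

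The rest of the pathway was read through 94 further genes in 8 lists, of which 87 were named by the annotation and 78 were tested, each by its brightest probe set. Of these, 1 was called higher and 0 lower (limma adjusted p under 0.05), where 0.12% and 0.156% of all genes tested were called. The 1 was Ddit4, a restraint on the growth kinase complex of mTOR, at 1.96 ± 0.34 with an adjusted p of 0.0497. Its signals were 331, 341, 373 and 511 in wild type 1 to 4 and 2640, 1580, 1934 and 696 in knockout 1 to 4, which did not overlap. Without any 1 array other than knockout 4 its limma adjusted p ran from 0.0872 to 0.173, and without knockout 4 it was 0.00476. The call was also lost with the replicate number as a block (limma adjusted p = 0.0885), with no filter on low signal (0.0892) and without an intensity trend (0.0775). At an unadjusted p under 0.05 there were 16 of 78, against 15.5% of all genes tested.

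The list of ligands and related receptors had 5 genes tested, with a median of 0.01. Igf1, the growth factor that liver secretes, had signals of 2670 to 4127 in wild type and 1400 to 2484 in the knockout, which did not overlap (-0.82 ± 0.21; limma adjusted p = 0.115), and the other 3 Igf1 probe sets stood between -0.81 and -0.71. Igf2 stood at 0.17 ± 0.13 by its brighter probe set and at 0.64 ± 0.31 by the other (limma adjusted p = 0.386). Adaptors and docking proteins had a median of -0.18 over 8 genes. Dok1, a docking protein that dampens tyrosine kinase signals, stood at -0.57 ± 0.19 and the exchange factor Sos1 at 0.36 ± 0.20. The dimmer Sos1 probe set stood at 0.56 ± 0.26 (limma adjusted p = 0.360). Its groups did not overlap, narrowly, with 285.5 the highest wild-type signal and 288.5 the lowest knockout signal. The other phosphoinositide 3-kinase and Akt related genes had a median of -0.10 over 6, with the catalytic subunits Pik3cg at -0.42 ± 0.17 and Pik3cb at 0.31 ± 0.17.

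Brakes on the pathway had a median of 0.13 over 19 genes, 15 of them above 0, against 46.5% of all genes tested. Their median was 0.32 within replicates 1 and 2 and -0.03 within replicates 3 and 4. The inositol phosphatase Inpp5k stood at -0.46 ± 0.13, with signals of 592 to 668 in wild type and 406 to 498.5 in the knockout. Inppl1, which removes a phosphate from the lipid that Akt binds, stood at 0.74 ± 0.22, 1.30 within replicates 1 and 2 and 0.19 within replicates 3 and 4. The mTOR branch had a median of 0.13, with 10 of 15 above 0. This median was 0.003 within replicates 1 and 2 and 0.17 within replicates 3 and 4. Mtor itself stood at 0.55 ± 0.15 (limma adjusted p = 0.133) by its brighter probe set and at 0.13 by the other. Of the other Akt substrates and atypical kinases all 12 tested lay above 0 by their brightest probe sets, against 46.5% of all genes tested. The median was 0.19, in a table where the median over all genes was -0.02. Not every probe set of these genes lay above 0. The other tested probe sets of Gsk3b stood at 0.37, 0.34, -0.29 and -0.22, that of Foxo3 at -0.06 and that of Prkci at -0.02. Further probe sets of Foxo1, Mdm2, Crtc2 and Bad lay above 0. Foxo4, a FOXO factor that Akt inactivates, had the smallest p in this list (0.72 ± 0.18; limma adjusted p = 0.107), with signals of 339 to 441 in wild type and 546.5 to 870 in the knockout. The phosphodiesterase Pde3b stood at 0.54 ± 0.23.

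Transcripts downstream of the pathway in liver were listed by the direction insulin is known to move them. All 6 that insulin lowers lay above 0, against 46.5% of all genes tested, at a median of 0.83, and 0 were called. The lowest was G6pc, the catalytic subunit of glucose-6-phosphatase, at 0.06 ± 0.22, with -0.10 within replicates 3 and 4 and a mean signal of 11991 in wild type against 11978 for the knockout. Klf15, a fasting-induced factor, had signals of 548 to 1242 in wild type and 1557 to 3599 in the knockout, and its log2 fold change was 1.37 ± 0.30 (limma adjusted p = 0.0839). Ppargc1a, a coactivator of gluconeogenic genes, had signals of 478, 263, 291 and 901 in wild type 1 to 4 and of 1868, 1222, 1168 and 702 in knockout 1 to 4, and wild type 4 lay above knockout 4 (1.42 ± 0.38; limma adjusted p = 0.134). The list had a median of 1.31 within replicates 1 and 2, 0.31 within replicates 3 and 4 and 1.003 without wild type 4. Array by array, its median deviation from the wild-type mean was 0.05, -0.39, -0.13 and 0.51 in wild type 1 to 4 and 1.40, 0.78, 0.92 and 0.28 in knockout 1 to 4. Wild type 4 thus lay above knockout 4, and the highest, knockout 1, was the array with the highest pyruvate carboxylase ratio, whose part was not tested. The 7 that insulin raises were split, with 4 above 0, a median of 0.05 and 0 called. Their median was -0.07 within replicates 1 and 2, -0.05 within replicates 3 and 4 and -0.20 without wild type 4. Pnpla3, a lipid droplet enzyme, stood at -0.59 ± 0.25 and the elongase Elovl6 at 0.40 ± 0.20.

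**Figure D5:**
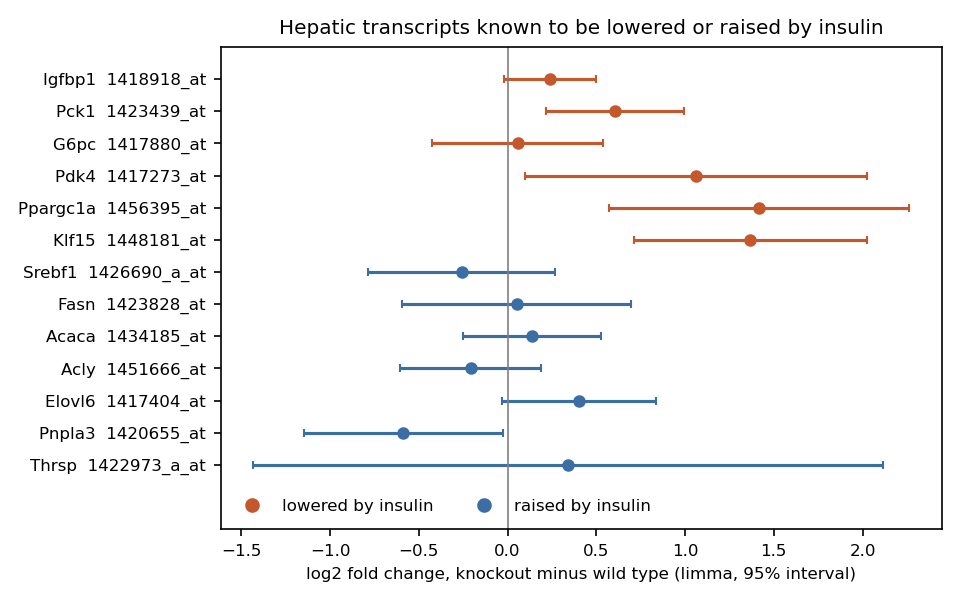
Log2 fold change of knockout minus wild type with limma's 95% interval for hepatic transcripts that insulin is known to lower (orange, 6 genes) or raise (blue, 7 genes), each by its brightest probe set. All 6 orange points lie above 0, and the blue points lie on both sides.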

How the data were processed

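The authors deposited 1 intensity per probe set and array, on a linear scale. Per the labels, it was made with GCOS 1.2 and its defaults, with a scaling target of 500. The table holds no detection calls. Names came from the platform's annotation, updated through Entrez numbers against RefSeq, which left 34945 probe sets with 1 gene, 932 with several and 9160 with none. Control probe sets (64) were left out. Groups were taken from the sample titles.

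After the filter on low signal (200 or more on 4 or more arrays), 20395 probe sets were fitted as log2(signal + 16) with limma 3.58.1 in R 4.3.3 (lmFit, then eBayes with an intensity trend, two-sided), after a test on simulated data. A call is an adjusted p (Benjamini-Hochberg) under 0.05. No list test was run. Figures were made with Python 3.11.15 and matplotlib 3.10.9. Array medians of the signal lay between 147 and 174.6. Replicates are separate livers, so p-values measure the spread between these pups.

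Members, gene lists and tests were chosen with earlier results of these data known. The text gives values on every array for Insr, Irs1, Irs2, Grb14 and members at an unadjusted p under 0.05 (also for further probe sets of Pik3r1 and Pik3ca, chosen after their values were seen). From each pathway list it names up to 4 called genes, or the 2 of smallest p. Likeness was sought for the 2 members of smallest p. Alternatives were other pseudocounts, signal minimums, scalings, eBayes settings and blocks, parts of the replicates, and each array left out.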

Additional observations from a re-analysis of the deposited data

Results flagged for a closer look

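In 5 of 44 groups of 4 arrays tested, 1 array lay far from the other 3, by the share of the group's range that separates it from its nearest neighbour. Chance flags about 1 group in 20. The groups share the same arrays, and the share flagged over all probe sets tested was not computed. The count is therefore not a result about the members. Wild type 1 was the array in 3 of them: for Pdpk1 (1415729_at) it stood at 2274 against 1375 to 1440 (share 0.908), for Akt1 (1416657_at) at 1421 against 1976 to 2042 (0.909) and for Akt2 (1421324_a_at) at 166 against 429 to 443 (0.965). Wild type 4 stood at 657 against 494 to 518 for Pdpk1 (1416501_at; 0.833). Knockout 4 stood at 1712 against 2012 to 2045 for Akt2 (1424480_s_at; 0.909).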

How the results depend on the processing

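No member probe set was called under any of the 21 other settings. Over all probe sets, the 61 calls became 21 with no filter on low signal, 22 with a minimum of 100, 18 without a trend, 184 with replicates 1 and 2 against 3 and 4 as a block, 154 with that block and no wild type 4, 30 in replicates 1 and 2 alone and 2 in replicates 3 and 4 alone. They ran from 2 to 334 with 1 array left out (2 for each of replicates 2 and 3 of either group, 6 for wild type 4, 22 for knockout 1 and 334 for knockout 4). The replicate number as a block gave 56. The numbers were not taken to pair the livers: deviations from the group means of same-numbered livers correlated at 0.22, 0.40, 0.34 and 0.05 for numbers 1 to 4, and wild type 3 and 4 each correlated best with the other number. Of the pathway genes, 1 was called, which became 0 with a pseudocount of 1, no filter, a minimum of 100, no trend, the replicate block or replicates 3 and 4 alone, 3 with the block of replicates and no wild type 4, and 0 to 2 with 1 array left out. The replicate block left the changes of the 4 pairs of members as they were, with an adjusted p of 0.25 for each, in a test of 16 sign changes whose smallest p is 0.125, so that no pair could pass. With 1 array left out, Irs2 minus Irs1 ran from 0.83 to 0.94, Akt2 minus Akt1 from -0.33 to -0.16 and Pik3r1 minus Pik3ca from -0.61 to -0.29. The 2 calls for a difference between replicates 1-2 and 3-4 became 1 with a pseudocount of 64, a minimum of 100 or no trend, 0 with no filter or with quantile normalization, and 0 to 22 with 1 array left out.

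The log2 fold changes of 11 of the 22 member probe sets changed sign somewhere. In replicates 1 and 2 alone these were Pik3ca (1423144_at, -0.10; 1460326_at, -0.013), Pdpk1 (1415729_at, -0.037), Akt2 (1424480_s_at, 0.072) and Ptpn1 (1438670_at, 0.027). In replicates 3 and 4 alone they were Insr (1450225_at, 0.22), Akt1 (1440950_at, 0.16), Akt2 (1421324_a_at, -0.28), Ptpn1 (1417068_a_at, -0.23) and Grb14 (-0.22). Insr (1450225_at) stood at 0.014 with quantile normalization, Akt2 (1421324_a_at) at -0.0014 with a pseudocount of 64 and Ptpn1 (1438670_at) at 0.031 with median scaling. With 1 array left out the ranges were -0.20 to 0.12 for Insr (1450225_at), -0.025 to 0.17 for Pik3ca (1460326_at), -0.19 to 0.029 and -0.36 to 0.013 for Akt1 (1425711_a_at and 1440950_at), -0.31 to 0.13 for Akt2 (1421324_a_at), -0.11 to 0.10 and -0.060 to 0.047 for Ptpn1 (1417068_a_at and 1438670_at), -0.057 to 0.28 for Grb14 and -0.45 to 0.0029 for Grb14 minus Insr. Irs2, Irs1, the 4 Pik3r1 probe sets and the brighter probe set of Insr kept their signs in all 21. So did Pdpk1 (1416501_at), Akt1 (1416657_at) and Pik3ca (1429434_at and 1429435_x_at). The share of all probe sets tested that changed sign was not computed, so the count of 11 is not a result about the members. Causes were not tested.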
